A study of Sus scrofa with 12 samples.

Results

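Creatine kinase and its companion enzymes keep the ATP supply of muscle steady while it contracts. The genes followed here are CKM, CKMT2, CKB, SLC6A8, GATM, GAMT, AK1, AMPD1, AMPD3 and ADSL, picked by name for that role, and 9 of the 10 were found by symbol among the 23271 genes of the deposited table. CKB, the gene of the brain-type creatine kinase, was not analysed here. Poly(A) RNA was sequenced from the back muscle longissimus dorsi in 6 libraries of Laiwu pigs, a Chinese breed known for fat-rich muscle, and in 6 libraries of Yorkshire pigs, a lean Western breed. The animals of both breeds are described as equal in weight. The sources used here name no treatment, age or sex. Nothing in the labels ties each library to a separate animal, so a p-value here speaks only of the spread between libraries, which may be technical. The comparison asks whether the level of these genes differs between the breeds.

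As background, creatine kinase moves a phosphate group between ATP and creatine, so that phosphocreatine can restore ATP within a contraction. Adenylate kinase draws further ATP from ADP and leaves AMP, which AMP deaminase removes as IMP. Adenylosuccinate synthase and adenylosuccinate lyase turn IMP back into AMP, and together these steps form the purine nucleotide cycle, which is prominent in fast, glycolytic fibres. Creatine itself is made from arginine and glycine by GATM and GAMT, mostly in kidney and liver, and enters muscle through the transporter SLC6A8.

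The libraries held 54961358 to 67285809 counts assigned to genes, and 17214 to 17739 genes had at least 1 count. The tissue label was checked against skeletal muscle genes, and ACTA1, the skeletal actin, averaged 41624 ± 6244 FPKM in Laiwu pigs, against 43899 ± 6523 FPKM in Yorkshire pigs (SD, n = 6 each). FPKM is a count scaled by the length of the gene and the depth of the library. Yorkshire 5 stood apart in one respect, since the deviation of its log2 level from the other Yorkshire libraries had a Spearman's rho of -0.42 with gene length, taken over the tested genes, while the same rho was -0.15 to 0.23 in the rest of the libraries. Shorter genes therefore tended to read higher in Yorkshire 5, and for genes and ratios that moved by over 1.5 times without that library the value without it is given.

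No difference between the breeds in the level of these 9 genes passed the test against the spread between libraries. By the quasi-likelihood test of edgeR, with p adjusted by Benjamini-Hochberg over 11205 tested genes, 0 of the 9 passed an adjusted p under 0.05, against 0.0% of all tested genes. At an unadjusted p under 0.05 it was also 0 of 9, against 4.44% of all tested genes. DESeq2 gave 0 of 9 adjusted, against 0.00893% of all genes it tested, and 1 unadjusted (AMPD1), against 5.08%. With limma on log2(FPKM + 1) there were 0 adjusted, against 0.0%, and 2 unadjusted (AMPD1 and AK1), against 3.61%. The genes nearest to a difference were AMPD1, fitted higher in Laiwu, and AK1, fitted lower. The 6 Laiwu libraries lay entirely above or below the 6 Yorkshire libraries for 0 of the 9, against 0.178% of all tested genes. Of the fitted log2 fold changes, Laiwu minus Yorkshire, 2 were above 0 and 7 below, with a median of -0.08. Over all tested genes 5573 were above 0 and 5632 below, with a median of -0.0013. Fewer fibres of a type and less RNA per fibre cannot be told apart in bulk muscle.

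**Figure D1:**
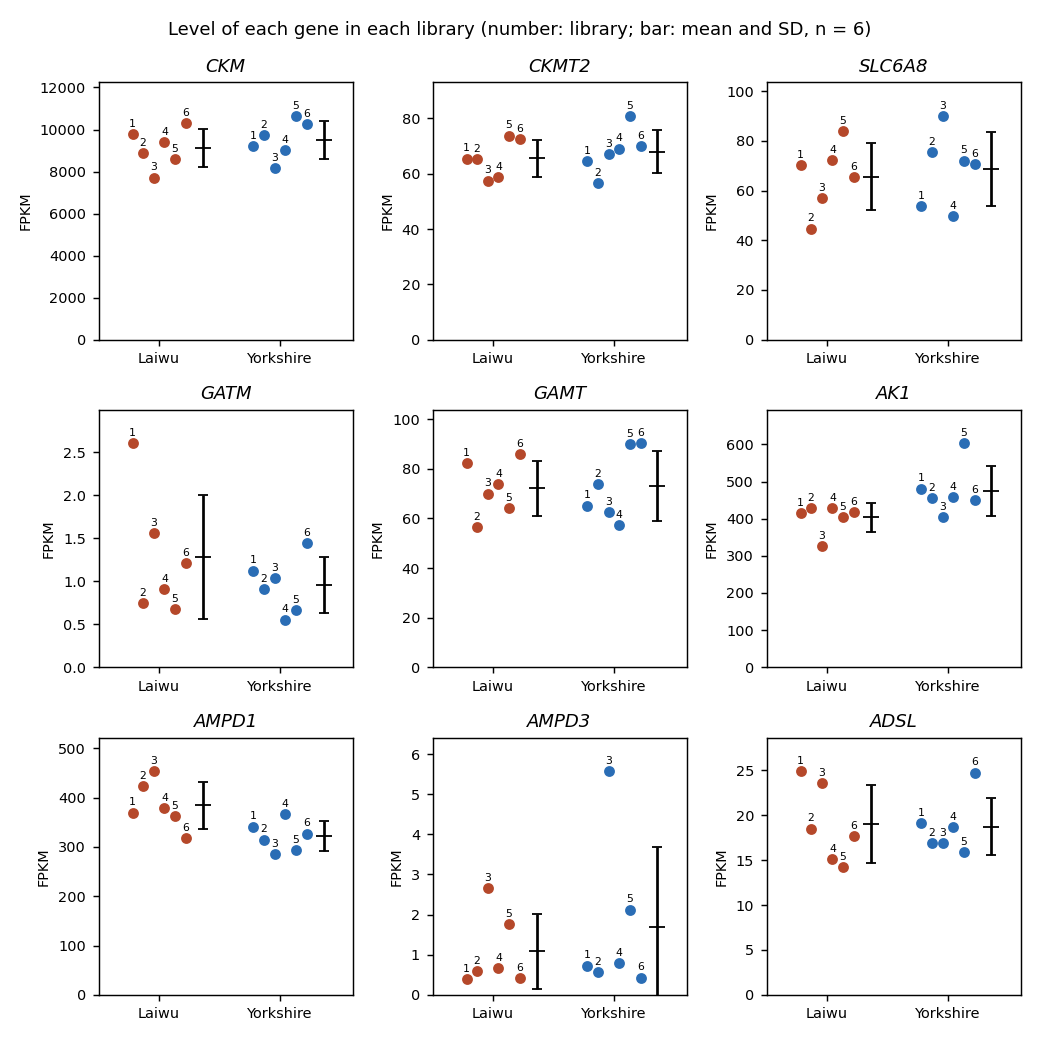
Level of each gene in FPKM (linear axes from 0) in each of the 6 Laiwu and 6 Yorkshire libraries; points are libraries with their number, and the bar beside them is the mean with its SD, which would reach below 0 for AMPD3 in Yorkshire and is drawn from 0. The breeds overlap in all 9 panels, with 4 Laiwu libraries above every Yorkshire library for AMPD1 and 5 Yorkshire libraries above every Laiwu library for AK1.

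CKM, the cytosolic creatine kinase of muscle, was the most abundant of the 9 genes and the 4th of all listed genes by mean FPKM. The gene (ENSSSCG00000036132; Sscrofa11.1 chromosome 6, 51700507 to 51712422, minus strand) took 2.62% to 3.62% of the counts of a library. In the deposited coordinates its end overlaps that of MARK4 on the opposite strand by 46 bases. RefSeq's CKM has other ends, running from 51704021 to 51716935, and the deposited MARK4 ends at 51700552. In Laiwu its lowest, median and highest levels were 7707, 9147 and 10319.9 FPKM, and in Yorkshire 8155, 9477 and 10648 FPKM. Library 3 was lowest in each breed, and the ranges overlapped over most of their width. The mean was 9120.5 ± 927 FPKM in Laiwu pigs, against 9506 ± 901 FPKM in Yorkshire pigs (SD, n = 6 each). The fitted log2 fold change of CKM was -0.09 ± 0.13 (SE), with a 95% interval from -0.37 to 0.19 and an edgeR adjusted p of 0.940. On the linear scale that interval runs from 0.774 to 1.14 times the Yorkshire level. The log2 value was -0.16 without Yorkshire 3, -0.037 without Yorkshire 5, -0.037 without Laiwu 3 and -0.0076 by limma on log2(TPM + 1).

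CKMT2, the creatine kinase of muscle mitochondria, which sits in the space between their membranes, was far below CKM. The gene (ENSSSCG00000014128; chromosome 2, 89796474 to 89832819, plus strand) was at 57.5, 65.4 and 73.8 FPKM (lowest, median, highest) across Laiwu libraries, against 56.7, 68.1 and 80.9 FPKM across Yorkshire libraries. The Laiwu libraries lay within the Yorkshire range, and Yorkshire 5 was the highest of all 12. For CKMT2 the log2 fold change was -0.08 ± 0.11 (SE; edgeR adjusted p = 0.936), with a 95% interval from -0.32 to 0.17. It was -0.0025 without Yorkshire 5, -0.036 without Laiwu 3, -0.12 without Yorkshire 3 and 0.00090 by limma on log2(TPM + 1), where TPM is FPKM rescaled to the same total in each library.

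The ratio of the 2 creatine kinases within a library does not depend on scaling between libraries. CKMT2 over CKM in FPKM was 0.00624, 0.00719 and 0.00857 in Laiwu and 0.00583, 0.00730 and 0.00822 in Yorkshire (lowest, median, highest). CKM thus stood 117 to 160 times above CKMT2 in Laiwu and 122 to 172 times above it in Yorkshire. The difference in mean log2 ratio, Laiwu minus Yorkshire, was 0.01 (two-sided exact permutation test over libraries, p = 0.926, adjusted over 5 ratios 0.981), and 0.026 without Yorkshire 5. FPKM divides by a gene length, which the table's own values put at 3.40 kb for CKM and 7.88 kb for CKMT2. The ubiquitous mitochondrial creatine kinase CKMT1A was at 0.0056 ± 0.014 FPKM in Laiwu pigs, against 0.0235 ± 0.027 FPKM in Yorkshire pigs (SD, n = 6 each), too low to test.

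SLC6A8, the transporter that brings creatine into the fibre, had a within-breed SD of log2 level of 0.33, against 0.21 for CKM and 0.18 for CKMT2. The gene (ENSSSCG00000012771; chromosome X, 124294856 to 124452182, plus strand) was at 44.7, 67.7 and 84.0 FPKM across Laiwu libraries, against 49.8, 71.4 and 90.1 FPKM across Yorkshire libraries (lowest, median, highest). Laiwu 2 was the lowest and Yorkshire 3 the highest library, and the breeds overlapped. For SLC6A8 the log2 fold change was -0.08 ± 0.17 (SE; edgeR adjusted p = 0.959), with a 95% interval from -0.45 to 0.28, and it was 0.00050 without Laiwu 2, -0.054 without Yorkshire 5 and -0.17 without Yorkshire 4. The deposited gene spans 157327 bases and overlaps BGN, ATP2B3, CCNQ, PNCK and DUSP9, whereas RefSeq's SLC6A8 on the same assembly spans 16901 bases at the downstream end. How reads of shared stretches were assigned was not tested. SLC6A8 over CKM had a difference in mean log2 ratio of -0.0044 (exact permutation test, two-sided, p = 0.981, adjusted 0.981), and of -0.018 without Yorkshire 5.

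GATM, which makes guanidinoacetate from arginine and glycine, was barely expressed. GAMT, which methylates guanidinoacetate to creatine, was at an FPKM like that of SLC6A8 and CKMT2. GATM (ENSSSCG00000004672; chromosome 1, 126361945 to 126380871, plus strand) was at 0.676, 1.06 and 2.60 FPKM across Laiwu libraries, against 0.554, 0.975 and 1.45 FPKM across Yorkshire libraries (lowest, median, highest). Those levels rest on 160 to 792 counts a library. Laiwu 1 was the highest and Yorkshire 4 the lowest, and the other libraries were mixed. Its log2 fold change was 0.41 ± 0.34 (SE; edgeR adjusted p = 0.912), and 0.045 without Laiwu 1.

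GAMT (ENSSSCG00000023142; chromosome 2, 77076566 to 77079759, plus strand) was at 56.6, 71.8 and 85.9 FPKM across Laiwu libraries, against 57.2, 69.5 and 90.2 FPKM across Yorkshire libraries (lowest, median, highest). The ranges nearly coincided, and Yorkshire 5 and Yorkshire 6 were the highest libraries. Its log2 fold change was -0.05 ± 0.16 (SE; edgeR adjusted p = 0.977), with a 95% interval from -0.40 to 0.29. It was 0.030 without Yorkshire 5, -0.13 without Yorkshire 4 and 0.040 by limma on log2(TPM + 1). GAMT exceeded GATM by 31.7 to 94.8 times in Laiwu and by 57.9 to 136 times in Yorkshire. The difference in mean log2 ratio was -0.34 (exact permutation test, two-sided, p = 0.314, adjusted 0.689), -0.19 without Yorkshire 5, -0.15 without Laiwu 1 and 0.051 as a difference in medians.

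AK1, the cytosolic adenylate kinase of muscle, which converts 2 ADP into ATP and AMP, was fitted lower in Laiwu without passing the test. The gene (ENSSSCG00000005627; chromosome 1, 268355033 to 268365598, minus strand) was at 325, 417 and 429 FPKM across Laiwu libraries, against 403, 457 and 602 FPKM across Yorkshire libraries (lowest, median, highest). Of the Yorkshire libraries 5 lay above every Laiwu library, and Yorkshire 3 lay among the Laiwu values. Laiwu 3 stood below all others and Yorkshire 5 above all others. The mean was 403 ± 39.2 FPKM in Laiwu pigs, against 475 ± 67.3 FPKM in Yorkshire pigs (SD, n = 6 each). For AK1 the log2 fold change was -0.26 ± 0.13 (SE), with a 95% interval from -0.55 to 0.02, an unadjusted p of 0.0699 and an adjusted p of 0.912 by edgeR. It was -0.16 without Yorkshire 5, the library whose shorter genes read high. The length that the table's values give AK1 was 1.99 kb, and the part of length in its level in Yorkshire 5 was not tested. AK1 over CKM was 0.0405, 0.0439 and 0.0483 in Laiwu and 0.0439, 0.0502 and 0.0566 in Yorkshire. The difference in mean log2 ratio was -0.17, with p = 0.0281 by the two-sided exact permutation test and 0.141 after adjustment over 5 ratios, so it did not pass. Without Yorkshire 5 it was -0.13 (exact permutation test, p = 0.0563, adjusted 0.281).

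AMPD1, the AMP deaminase of skeletal muscle, was fitted higher in Laiwu, again without passing the test. The gene (ENSSSCG00000006754; chromosome 4, 105868897 to 105893769, plus strand) was at 318, 374 and 454 FPKM across Laiwu libraries, against 286, 321 and 367 FPKM across Yorkshire libraries (lowest, median, highest). Of the Laiwu libraries 4 lay above every Yorkshire library and 3 Yorkshire libraries lay below every Laiwu library, while Laiwu 5, Laiwu 6 and the 3 other Yorkshire libraries overlapped. The mean was 384 ± 47.9 FPKM in Laiwu pigs, against 322 ± 30.3 FPKM in Yorkshire pigs (SD, n = 6 each). The log2 fold change was 0.23 ± 0.11 (SE), with a 95% interval from -0.01 to 0.48, an unadjusted p of 0.0590 and an adjusted p of 0.912 by edgeR. With 1 library left out it ran from 0.17 without Yorkshire 3 to 0.29 without Laiwu 6, and under the other alternatives from 0.23 to 0.31.

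AMPD1 over AK1 within a library was looked at after these values were seen, so it is given with no test. It was 0.760, 0.893 and 1.39 in Laiwu and 0.487, 0.709 and 0.799 in Yorkshire (lowest, median, highest). In Laiwu the FPKM ranges of AK1 and AMPD1 overlapped, and in Yorkshire every AK1 value in FPKM was above every AMPD1 value. That order depends on the gene length by which FPKM divides, 1.99 kb for AK1 and 4.22 kb for AMPD1. Before that division AMPD1 had more counts than AK1 in each library, the closest being Yorkshire 5, at 78114 against 75802. The highest ratio belonged to Laiwu 3 and the lowest to Yorkshire 5, the libraries with the lowest and highest AK1.

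**Figure D2:**
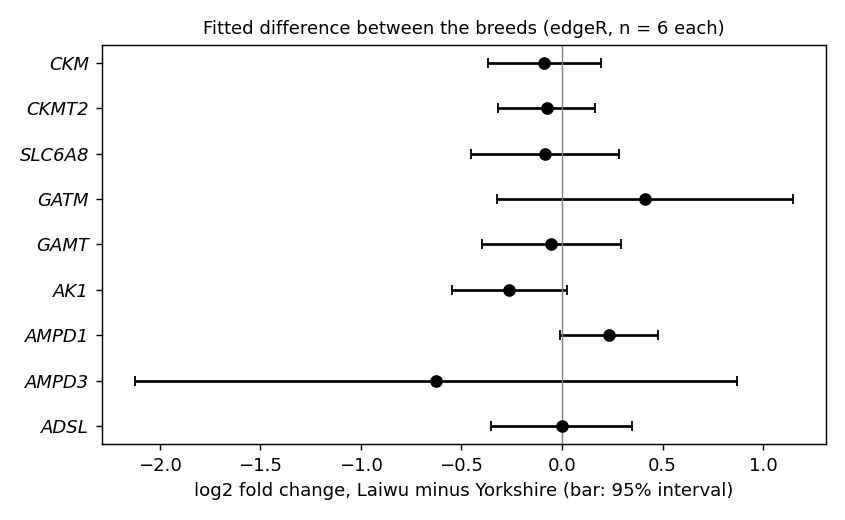
Fitted log2 fold change, Laiwu minus Yorkshire, of each gene (points) with its 95% interval (bars) from edgeR over 6 libraries of each breed; the grey line marks 0. All 9 intervals include 0, that of AMPD1 running from -0.01 to 0.48, that of AK1 from -0.55 to 0.02 and that of AMPD3 from -2.12 to 0.87.

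AMPD3, the AMP deaminase typical of red blood cells and also made in other tissues, was expressed at a far lower level than AMPD1 and was the most variable of the 9 genes. The gene (ENSSSCG00000022492; chromosome 2, 49028923 to 49083005, minus strand) was at 0.395, 0.624 and 2.67 FPKM across Laiwu libraries, against 0.428, 0.756 and 5.58 FPKM across Yorkshire libraries (lowest, median, highest). The 4 highest libraries were Yorkshire 3 at 5.58 FPKM, Laiwu 3 at 2.67 FPKM, Yorkshire 5 at 2.13 FPKM and Laiwu 5 at 1.76 FPKM, and the other 8 ran from 0.395 to 0.784 FPKM. High and low libraries thus occurred in both breeds. The highest and lowest libraries differed 6.75-fold within Laiwu and 13.0-fold within Yorkshire. For AMPD3 the log2 fold change was -0.63 ± 0.69 (SE; edgeR adjusted p = 0.919), with a 95% interval from -2.12 to 0.87, and it was 0.14 without Yorkshire 3 and -1.10 without Laiwu 3.

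The SD of log2 level within breeds was 1.22 for AMPD3 and 0.64 for GATM, which puts AMPD3 at the percentile 98.2 and GATM at the percentile 90.5 of the tested genes. It was 0.18 for both CKMT2 (percentile 15.9) and AMPD1 (percentile 16.1) and 0.21 for CKM (percentile 26.4). The 2 genes of lowest level were thus the 2 of largest spread. AMPD3 over AMPD1 was 0.00107, 0.00157 and 0.00588 in Laiwu and 0.00131, 0.00214 and 0.0195 in Yorkshire. The difference in mean log2 ratio was -0.66 (exact permutation test, two-sided, p = 0.413, adjusted 0.689), -0.15 without Yorkshire 3 and -0.44 without Yorkshire 5. Erythroid markers, of which 3 of 5 were found, summed to 3.73 to 14.5 FPKM in Laiwu and 3.30 to 14.2 FPKM in Yorkshire, and their part in AMPD3 was not tested. Of the summed FPKM of the 3 AMP deaminase genes, AMPD1 held 99.2% to 99.7% in Laiwu and 97.7% to 99.6% in Yorkshire.

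The genes most like AMPD3 over the 12 libraries, after subtraction of breed means and among genes of at least 5 FPKM, were RNF115, CBFA2T3 and BNIP3L, at a Pearson's r of 0.95, 0.94 and 0.93. BNIP3L, a receptor that marks mitochondria for autophagy, was at 5.14 to 9.90 FPKM across Laiwu libraries, against 5.51 to 10.7 FPKM across Yorkshire libraries. All 3 were highest in the same 4 libraries as AMPD3, namely Laiwu 3, Laiwu 5, Yorkshire 3 and Yorkshire 5. They were picked from 4248 genes for the largest r, so these and the like r values of other genes are a description. All genes of a library share its depth and scaling.

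**Figure D3:**
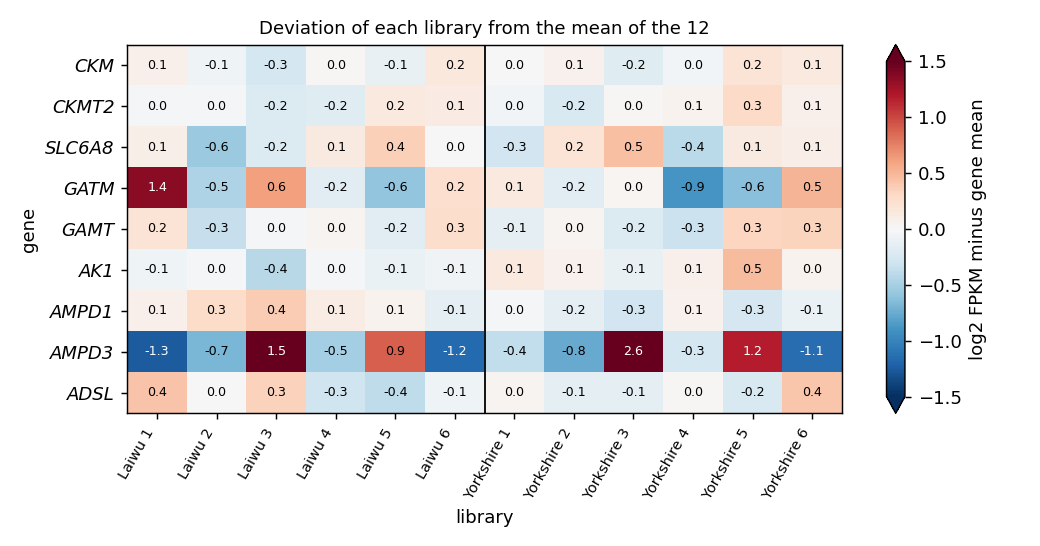
Deviation of each library's log2 FPKM from the gene's mean over the 12 libraries, with Laiwu left and Yorkshire right of the black line; the number in each cell is the deviation in log2 units, and the colours saturate at 1.5. AMPD3 stands high in library 3 and library 5 of each breed, GATM is highest in Laiwu 1, and CKM deviates by at most 0.27.

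ADSL, the adenylosuccinate lyase, which acts both in the purine nucleotide cycle and in making purines anew, differed between the breeds by less than its spread. The gene (ENSSSCG00000000077; chromosome 5, 8025508 to 8047603, minus strand) was at 14.2, 18.1 and 24.9 FPKM across Laiwu libraries, against 15.9, 17.8 and 24.8 FPKM across Yorkshire libraries (lowest, median, highest). Laiwu 1, Laiwu 3 and Yorkshire 6 stood above the rest. Its log2 fold change was -0.0010 ± 0.16 (SE; edgeR adjusted p = 0.999), with a 95% interval from -0.35 to 0.35. With 1 library left out it ran from -0.11 without Laiwu 1 to 0.11 without Yorkshire 6. The value without Yorkshire 5 was -0.032. The genes most like ADSL were ENSA, ULK1 and EPM2A, at an r of 0.93, 0.91 and 0.90 after subtraction of breed means.

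Ordered by mean FPKM over the 12 libraries, the genes ran CKM (9313), AK1 (439), AMPD1 (353), GAMT (72.6), SLC6A8 (67.1), CKMT2 (66.8), ADSL (18.9), AMPD3 (1.39) and GATM (1.12). The ranges of GAMT, SLC6A8 and CKMT2 overlapped in each breed, as did those of AMPD3 and GATM. The order holds for FPKM and depends on the lengths by which it divides, such as 1.22 kb for GAMT, 2.24 kb for SLC6A8 and 7.88 kb for CKMT2. AK1 held 91.3% to 94.7% of the summed FPKM of the 7 adenylate kinase genes listed in Laiwu and 94.1% to 96.9% in Yorkshire.

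The level of CKM followed that of fast fibre genes from library to library. Over the 12 libraries, log2 CPM of CKM correlated with a score of 12 fast fibre genes, among them the fast myosin MYH4 and the fast troponin TNNI2, at a Pearson's r of 0.90 and a Spearman's rho of 0.93 (permutation test, two-sided, adjusted p = 0.0005 for each over 10 relations). The r was 0.92 without Laiwu 1 and Yorkshire 6, the libraries farthest from the median score. Within Laiwu r was 0.75 (exact permutation p = 0.0722, n = 6) and within Yorkshire 0.99 (exact permutation p = 0.00417, n = 6). On log2 FPKM in place of CPM scaled by TMM, a factor that both measures share, r was 0.79 (permutation test, adjusted p = 0.0255).

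CKM and AK1 also moved together, at an r of 0.83 (permutation test, adjusted p = 0.00175) and a rho of 0.81 (adjusted p = 0.0113). The r was 0.73 without Laiwu 3 and Yorkshire 5, 0.85 within Laiwu (exact permutation p = 0.0319, n = 6), 0.87 within Yorkshire (exact permutation p = 0.0139, n = 6), and 0.73 on log2 FPKM (permutation test, adjusted p = 0.0314). The genes most like CKM after subtraction of breed means were KARS1, ALDOA and MIB2, at an r of 0.95, 0.95 and 0.93, and those most like AK1 were GPI, TPI1 and MAEA, at 0.95, 0.94 and 0.93. ALDOA, GPI and TPI1 encode enzymes of glycolysis. For AMPD1 the 3 genes were DDX1 (0.92), ECD (0.90) and SRSF5 (0.89), and for CKMT2 they were SMPDL3B (0.96), CCDC127 (0.94) and HRAS (0.90). For SLC6A8 they were COL5A1 (0.94), IRF2BP2 (0.93) and ABRA (0.93), for GATM XPNPEP1 (0.89), UROD (0.88) and GSE1 (0.87), and for GAMT PEBP4 (0.95), RBM17 (0.94) and DDRGK1 (0.93).

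**Figure D4:**
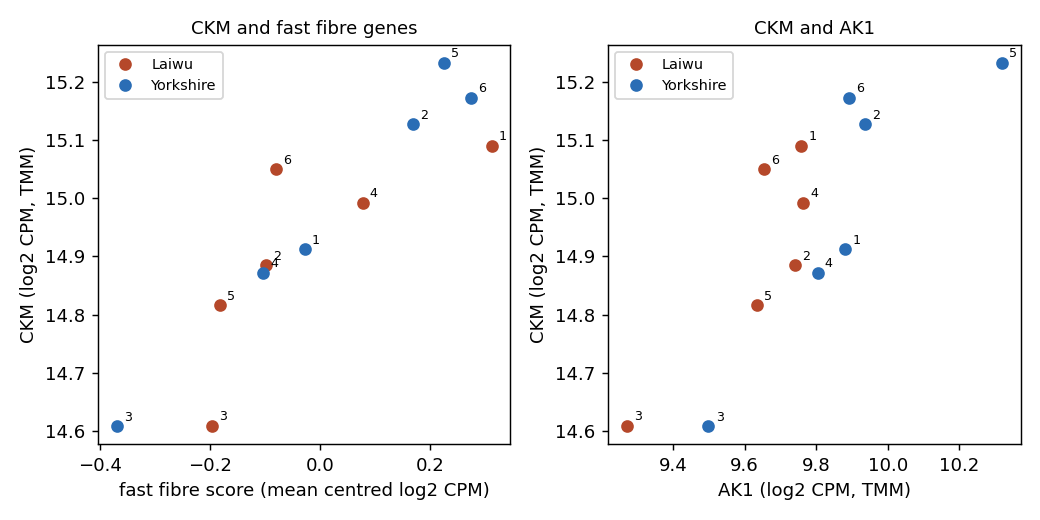
CKM in log2 CPM scaled by TMM (vertical axes) against the fast fibre score, the mean over 12 genes of centred log2 CPM (left), and against AK1 in log2 CPM (right); points are the 6 Laiwu and 6 Yorkshire libraries with their number. CKM is lowest in library 3 of each breed and increases with both measures, at an r of 0.90 with the score and 0.83 with AK1.

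The other 8 relations did not pass. CKMT2 and CKM had an r of 0.66 and a rho of 0.55 (permutation test, adjusted p = 0.0633 and 0.211), and r was 0.32 without Laiwu 3 and Yorkshire 5. CKMT2 had an r of 0.36 with the slow fibre score (rho 0.41; permutation test, adjusted p = 0.328 and 0.277), whose genes mark the oxidative fibres. AMPD3 had an r of 0.46 with that score (rho 0.45; permutation test, adjusted p = 0.243 and 0.277). GATM and GAMT had an r of 0.49 (rho 0.52; permutation test, adjusted p = 0.243 and 0.211). AMPD1 and AMPD3 had an r of -0.35 and a rho of -0.10 (permutation test, adjusted p = 0.328 and 0.833). The r was -0.25 without Laiwu 3 and Yorkshire 3. Within Laiwu r was 0.41 (rho 0.49) and within Yorkshire -0.93 (rho -0.66), a difference that was not tested. Yorkshire 3 had the highest AMPD3 and the lowest AMPD1 of its breed. AMPD1 had an r of 0.41 with ADSL, and GATM an r of 0.18 with SLC6A8 (permutation test, adjusted p = 0.315 and 0.658). AMPD1 and CKM had an r of -0.05 on log2 CPM (permutation test, adjusted p = 0.869) and -0.51 on log2 FPKM (adjusted p = 0.177).

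Of the other genes of these pathways, 43 were found and 36 tested, and edgeR called 0 higher and 0 lower in Laiwu at an adjusted p under 0.05. At an unadjusted p under 0.05 there were 3 higher and 2 lower, against 2.14% and 2.3% of all tested genes. Fitted fold changes were above 0 for 25 and below 0 for 11, with a median of 0.05, against -0.0013 over all tested genes. The other adenylate kinases were above 0 in 3 of 3, and the 2 most abundant were AK3, an enzyme of the mitochondrial matrix, at 19.0 ± 2.67 FPKM in Laiwu pigs, against 16.9 ± 2.91 FPKM in Yorkshire pigs (SD, n = 6 each), and AK6, at 5.84 ± 0.70 FPKM in Laiwu pigs, against 5.66 ± 0.75 FPKM in Yorkshire pigs. The 5 genes at an unadjusted p under 0.05 were named after their values were seen. They were AK4 (log2 fold change 0.80), MTR (0.47) and PAICS (0.24) on the higher side and APRT (-0.46) and NME1 (-0.93) on the lower side, each with an edgeR adjusted p of 0.912.

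Purine nucleotide cycle and salvage genes were above 0 in 11 of 13. Of these IMPDH2, which leads IMP towards GMP, was at 44.0 ± 5.41 FPKM in Laiwu pigs, against 42.4 ± 6.36 FPKM in Yorkshire pigs, and NT5C1A, a nucleotidase that splits AMP, at 20.8 ± 3.23 FPKM in Laiwu pigs, against 18.7 ± 5.59 FPKM in Yorkshire pigs. ADSS2, an adenylosuccinate synthase named for its place in the cycle, was at 3.40 ± 0.52 FPKM in Laiwu pigs, against 3.11 ± 0.43 FPKM in Yorkshire pigs, and its muscle isoform ADSS1 was not analysed here. Genes that make purines anew were above 0 in 4 of 5, with PRPS1 at 11.7 ± 2.44 FPKM in Laiwu pigs, against 10.6 ± 1.54 FPKM in Yorkshire pigs and PRPS2 at 4.06 ± 1.59 FPKM in Laiwu pigs, against 4.23 ± 1.61 FPKM in Yorkshire pigs.

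Genes that pass adenine nucleotides across the mitochondrial membranes were above 0 in 2 of 4. The outer membrane channel VDAC1 was at 179.7 ± 10.97 FPKM in Laiwu pigs, against 186 ± 8.98 FPKM in Yorkshire pigs, and SLC25A4, the ADP/ATP carrier of muscle, at 144 ± 26.0 FPKM in Laiwu pigs, against 135 ± 24.5 FPKM in Yorkshire pigs. Genes of methyl supply, on which GAMT draws, were above 0 in 5 of 6, with MAT2A at 34.9 ± 5.965 FPKM in Laiwu pigs, against 30.3 ± 7.77 FPKM in Yorkshire pigs and AHCY at 28.8 ± 4.31 FPKM in Laiwu pigs, against 29.1 ± 4.52 FPKM in Yorkshire pigs. Other nucleotide kinases were below 0 in 5 of 5, with NME2 at 21.0 ± 1.40 FPKM in Laiwu pigs, against 24.1 ± 6.47 FPKM in Yorkshire pigs and CMPK1 at 7.98 ± 0.93 FPKM in Laiwu pigs, against 8.56 ± 1.299 FPKM in Yorkshire pigs.

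The summed level of 12 fast fibre markers ran from 42289 to 49877 FPKM in Laiwu and from 40261 to 51936 FPKM in Yorkshire, and that of 11 slow fibre markers from 930.2 to 3230.4 FPKM in Laiwu and from 1871 to 3852 FPKM in Yorkshire. Slow markers were fitted below 0 in 9 of 11 and fast markers in 8 of 12, with 0 past the test. Adipocyte markers summed to 106 to 276 FPKM in Laiwu and 102 to 160 FPKM in Yorkshire, with 7 of 8 tested members above 0, against 5573 of all 11205 tested genes. At an unadjusted p under 0.05 by edgeR 6 of the 8 were higher in Laiwu, against 2.14% of all tested genes, and 0 at an adjusted p under 0.05. The part of these markers in the values of AMPD1 and AK1 was not tested.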

How the data were processed

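Reads were aligned with HISAT2 2.2.1 to Sscrofa11.1, per the design text of the series, with cutadapt 1.9, StringTie 1.3.4d, DESeq2 and edgeR listed by the submitters' processing notes without a role. The kit marks strand. Strand use in counting and the annotation release were not given in the sources used here. The deposited table holds counts and FPKM per gene and library, per the file headers. The counts were taken as raw. Each library's total was 54961358 to 67285809 counts. A count of 0 would allow up to 3 counts, or 0.0446 to 0.0546 CPM, for counting error only.

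The 11205 genes whose mean reached 0.5 FPKM were tested with edgeR 4.0.16, TMM and robust quasi-likelihood fits, Laiwu minus Yorkshire, with no covariate. Standard errors were taken as the fold change over the root of its F value. Alternatives used limma 3.58.1, DESeq2 1.42.0 and R 4.3.3, other scalings and filters, a replicate block and leaving out each library. Ratios were compared by exact permutation over libraries and relations by 100000 permutations, with Python 3.11.15, SciPy 1.17.1 and matplotlib 3.10.9. A marker score is the mean over genes of log2 CPM centred per gene. Gene names for 128 of 8541 unnamed IDs came from a gene table, and 2 came from deposited descriptions. The genes, lists and tests were chosen with earlier results of these data known. The text names the 9 genes, the 3 genes most like each of the 9, and the 2 most abundant of each other pathway list. ADSS2 was added for its place in the purine nucleotide cycle. AK4, MTR, PAICS, APRT and NME1 were added after their values were seen, for an unadjusted p under 0.05 by edgeR. Ratios and relations with CKB could not be computed.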

Additional observations from a re-analysis of the deposited data

Results flagged for a closer look

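In 28 sets of 6 values (each gene and each ratio in each breed), 4 had a library far from the rest. For independent sets of normal values chance would give about 1 in 20, or 1.4. The ratios share values with the genes, so the sets are not independent and the 2 numbers cannot be weighed against each other. AK1 in Laiwu 3 stood at 325 FPKM, with the next Laiwu value at 405 and the highest at 429 FPKM. AMPD3 in Yorkshire 3 stood at 5.58 FPKM, with the next Yorkshire value at 2.13 and the lowest at 0.428 FPKM. The ratio of AMPD3 to AMPD1 was likewise highest in Yorkshire 3, at 0.0195, with the next value at 0.00725. ADSL in Yorkshire 6 stood at 24.8 FPKM, with the next Yorkshire value at 19.1 FPKM.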

How the results depend on the processing

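The count of genes called was 0 under each alternative except DESeq2, which called 1 (CILP, which is not among the 9), and 0 of the 9 genes passed under any. Of the values compared with their main value, 282 were unchanged in kind and 27 changed sign. The 282 include 22 counts of genes called that stayed at 0, and the rest kept their direction and side of the threshold. By limma on log2(TPM + 1) the log2 fold change was 0.00090 for CKMT2, 0.040 for GAMT and 0.059 for ADSL. For ADSL it was 0.019 with library size without TMM, 0.0077 by limma on log2(FPKM + 1) and 0.0073 on log2(FPKM + 0.1). As a difference in medians the log2 ratio was -0.021 for CKMT2 over CKM, 0.051 for GAMT over GATM and 0.090 for SLC6A8 over CKM. The cause of these changes was not tested.

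With 1 library left out, log2 fold changes ran from -0.16 to -0.04 for CKM, -0.12 to -0.0025 for CKMT2, -0.17 to 0.00050 for SLC6A8, 0.045 to 0.59 for GATM, -0.13 to 0.030 for GAMT, -0.34 to -0.16 for AK1, 0.17 to 0.29 for AMPD1, -1.10 to 0.14 for AMPD3 and -0.11 to 0.11 for ADSL. The log2 ratios ran from -0.050 to 0.049 for CKMT2 over CKM, -0.10 to 0.12 for SLC6A8 over CKM, -0.46 to -0.15 for GAMT over GATM, -0.95 to -0.15 for AMPD3 over AMPD1 and -0.21 to -0.13 for AK1 over CKM.

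The libraries of the 2 breeds share numbers 1 to 6, but 1 of 6 same-numbered pairs had a correlation of deviations over 0.1 (range -0.29 to 0.30), and in 0 of 6 was the same number the closest, so the numbers were not taken as pairs. At an unadjusted p under 0.05 edgeR had 498 genes, 284 without Laiwu 3, 293 without Yorkshire 5 and 1715 with no filter on low values. With a replicate block edgeR called 0 genes, and the log2 fold change was 0.23 for AMPD1, -0.25 for AK1 and -0.43 for AMPD3, the last with an unadjusted p of 0.0221 and an adjusted p of 0.921.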
